A study of Rattus norvegicus with 9 samples.

Results

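Lysosomes are the acidic compartments in which cells break down proteins, sugars and lipids, and a set of 46 genes for their enzymes, membrane proteins and proton pump was followed through tissue from the middle of rat femoral fractures. The members are the protein-coding rows of the deposited count table that carry 1 of 46 gene names, out of 35360 genes in the table, and all 46 were found. They comprise 5 subunits of the membrane-bound V0 sector of the vacuolar proton pump, 8 subunits of its V1 sector, 2 accessory proteins of the pump, 9 proteases, 9 glycosidases, 7 proteins of lipid handling, 4 membrane glycoproteins, the channel Mcoln1 and the transcription factor Tfeb. The rule leaves out 4 genes that osteoclasts use for bone resorption (Ctsk, Tcirg1, Atp6v0d2 and Acp5), and it uses no measured value. The members were, however, chosen with earlier results of these data known.

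The vacuolar pump spends ATP in its cytosolic V1 sector to turn a rotor that moves protons through the V0 sector in the membrane, and the acid this makes is what the hydrolases need. Most cells place the pump on lysosomes, whereas osteoclasts also carry it to the membrane that faces bone, where released acid dissolves mineral and secreted enzymes digest matrix. TFEB and its relatives, MITF among them, bind short E-box sequences in promoters of lysosomal genes and switch many of them on together.

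The study placed 3 gels in fractures and sequenced 3 libraries of polyadenylated RNA for each, 9 in all. Gel is the gel alone. ALN gel holds the bisphosphonate that the labels call ALN; bisphosphonates are drugs that bind bone mineral and are taken up by osteoclasts. Mg-ALN gel holds a metal-organic framework built from magnesium and ALN, and the series title places the work in osteoporotic fracture repair. All groups share the fracture and a gel, and none is unfractured bone. The strain, age and sex of the rats and how osteoporosis was brought about are not given in the sources used here. Nor are the dose, the time after fracture or whether each library comes from a separate animal. The p-values below therefore set differences between groups against the spread between these libraries only, part of which may be technical. In bulk tissue, fewer cells of a type and less RNA per cell cannot be told apart.

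Promoter letters are shown for the members with CACGTG, an E-box of the TFEB and MITF family, and for Atp6v1a and Scarb2 with TCATGTG, another. They show what a lysosomal promoter of this kind looks like and which of the members carry CACGTG. Of the 46 members, 38 had an entry among the RefSeq promoter windows of build GRCr8, each 300 bases from 250 before to 50 after the annotated start of the gene. Atp6v1b2, Atp6v1c1, Atp6v1h, Ctsb, Hexa, Psap, Asah1 and Ppt1 had no entry. The windows were searched on both strands for GTCACGTG, for TCACGTG and CACGTG, which are both contained in it, and for TCATGTG. GTCACGTG was found in 7 of 38 members (18.4%), against 2.02% of all 27457 promoters of the table and 2.51% of those of protein-coding genes. TCACGTG was found in the same share of members, against 3.43% of all promoters. CACGTG alone was found in 8 of 38 (21.1%), against 6.65%. The Lamp1 promoter held 5 matches to CACGTG, at −183, −167, −150, −65 and −38 from the start, where negative positions lie before it. It is given here from 250 bases before the start up to the start, with CACGTG and the flanking letters that match in capitals, 5′ to 3′ on the minus strand of chr16:83075064-83075313.
Lamp1: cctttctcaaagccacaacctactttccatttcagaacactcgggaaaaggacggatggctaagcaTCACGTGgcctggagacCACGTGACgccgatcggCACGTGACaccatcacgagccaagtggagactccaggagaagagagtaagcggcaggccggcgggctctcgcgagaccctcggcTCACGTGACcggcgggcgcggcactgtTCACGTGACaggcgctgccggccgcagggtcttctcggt

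The other members with a match are given in stretches of up to 60 bases around the first one, 5′ to 3′ on the strand of the gene and with the matching letters in capitals. Ctsd (minus strand, chr1:206968946-206969005) had matches at −157 and −10, of which the first is shown. Mcoln1 (plus strand, chr12:6358209-6358257) had them at −22 and 4. Glb1 (plus strand, chr8:122963591-122963650), Gaa (plus strand, chr10:105028261-105028320), Atp6v0d1 (minus strand, chr19:50357268-50357327) and Atp6v0e1 (minus strand, chr10:17007115-17007144) had 1 each, at −100, −67, −52 and 24. In Cd63 (plus strand, chr7:1921927-1921986) the match at −190 was to CACGTG without the flanking letters.
Ctsd: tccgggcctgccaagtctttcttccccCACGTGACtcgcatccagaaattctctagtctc
Mcoln1: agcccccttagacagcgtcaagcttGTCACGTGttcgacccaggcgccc
Glb1: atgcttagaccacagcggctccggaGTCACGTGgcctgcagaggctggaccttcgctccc
Gaa: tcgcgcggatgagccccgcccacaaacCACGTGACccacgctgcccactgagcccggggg
Atp6v0d1: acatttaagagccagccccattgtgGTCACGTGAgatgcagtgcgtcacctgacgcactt
Atp6v0e1: tcgcgcgccgGTCACGTGAgcctctgttga
Cd63: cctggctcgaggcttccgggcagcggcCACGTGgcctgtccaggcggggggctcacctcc

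The other E-box of the family, TCATGTG, was found in 6 of 38 members (15.8%), against 3.46% of all promoters, and neither contains nor is contained in the sequences searched above. The 6 were Atp6v0c, Atp6v1a, Cd63, Ctss, Scarb2 and Tpp1. Atp6v1a (plus strand, chr11:70067454-70067501, match at −22 on the opposite strand) and Scarb2 (plus strand, chr14:15842446-15842505, match at −111 on the opposite strand) are shown with the match in capitals. Ctsk, 1 of 3 osteoclast genes outside the set with an entry, also held it, at −151. None of the 5 V1 promoters with an entry held CACGTG. A match is a stretch of letters and not a measured binding site.
Atp6v1a: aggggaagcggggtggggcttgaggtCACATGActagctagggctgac
Scarb2: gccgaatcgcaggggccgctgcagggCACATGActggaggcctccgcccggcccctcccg

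Total counts lay between 13388689 and 18763270 per library, and the members took 1.38% to 3.10% of them. The 9 libraries varied widely within their groups, at 51.4% for the common biological coefficient of variation. Mitochondrially encoded genes took 4.16% to 17.5% of counts in Gel, 7.61% to 39.5% in ALN gel and 10.6% to 31.6% in Mg-ALN gel. Bone markers were present throughout, with 10 of 10 osteoblast and osteocyte markers tested and a summed 24537 to 109111 CPM (counts relative to TMM-scaled library sizes). Muscle markers ranged from a summed 8.0 to 10012 CPM, chondrocyte markers from 113 to 1043, neutrophil markers from 94.6 to 8482 and fibroblast markers from 2972 to 30998. Gel library 1 stood apart from the other Gel libraries in the osteoclast and macrophage lists: its osteoclast markers summed to 18958 CPM against 4604 and 2430, and its macrophage markers to 1278 CPM against 2515 and 2290. Gel library 3 stood apart in the muscle list, at 10012 CPM against 62.2 and 79.8 in Gel libraries 1 and 2. The ALN gel libraries 1 to 3 had 2166, 58.6 and 1318 CPM there, and the Mg-ALN gel libraries 203, 121 and 8.0.

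Levels of different genes were compared as deposited FPKM, which divides by gene length. By the median over 9 libraries the order was led by Ctsb (a cysteine protease) at 1482 FPKM and Psap (the precursor of saposins, which help enzymes reach lipids) at 1408, followed by Cd63 (a membrane tetraspanin) at 895, Ctsz (a carboxypeptidase) at 805, Atp6v0c (the proteolipid that forms the rotor ring) at 802 and Ctsd (an aspartic protease) at 667. The ranges over libraries of these 6 overlapped, so neighbours in the order are not separated. At the other end stood Npc1 (a membrane cholesterol transporter) at 8.37 FPKM, Manba (a mannosidase) at 12.1, Tfeb at 15, Atp6v0a1 (the V0 subunit with the proton path) at 15.4 and Mcoln1 (a calcium channel of the lysosome) at 16. Between V1 subunits, which join the pump in fixed numbers, the median level ran from 59.5 FPKM for Atp6v1h to 315 for Atp6v1g1.

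**Figure D1:**
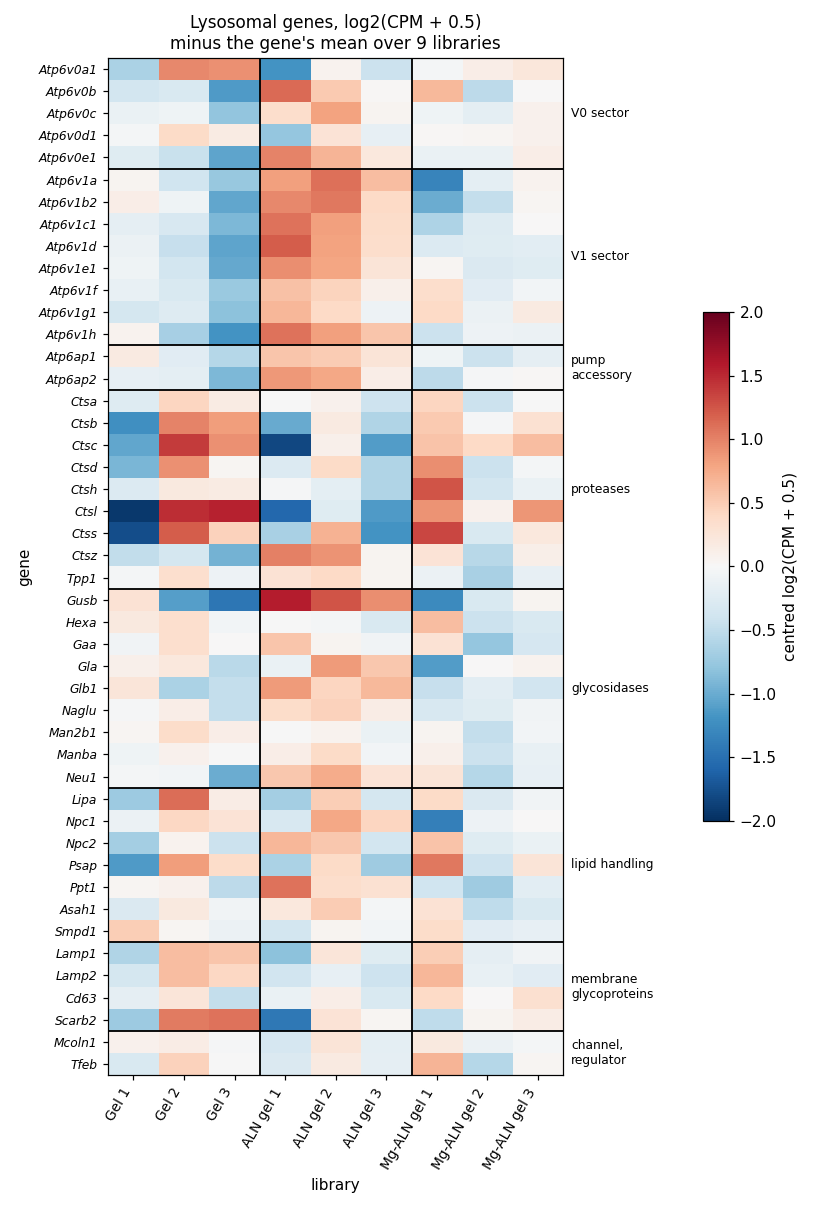
Level of each of the 46 members (rows, ordered by role) in each of 9 libraries (columns), as log2(CPM + 0.5) minus the mean of the gene over the 9 libraries, with higher values in the warmer colour. Most pump rows are high in the 3 ALN gel columns, and Ctsl, Ctsc and Ctsb are low in Gel library 1.

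The comparison of ALN gel with Gel shows how lysosomal genes stood when the bisphosphonate was in the gel. Most genes of the proton pump had a higher level in ALN gel. All 8 V1 subunits were higher in ALN gel, with a median log2 fold change of 1.17, and 7 of 9 proteases were lower, with a median of −0.30. Without Gel library 2, 5 of 9 proteases were lower (median −0.13), and without Gel library 1, 7 of 9 (median −0.65). Over all 46 members, 27 were higher and 19 lower (median log2 fold change 0.17, against −0.0014 over all 15460 genes tested), where 49.8% of all genes were higher and 50.2% lower, in a range from −1.86 (Ctsl) to 1.82 (Gusb).

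None of the 46 passed an adjusted p of 0.05 by edgeR's quasi-likelihood test with Benjamini-Hochberg adjustment (lowest adjusted p 0.505), and 0 of 15460 genes did. At an unadjusted p under 0.05 there were 21 members, against 8.2% of all genes. Of these, 18 were higher and 3 lower, where 5.78% of all genes tested were higher and 2.42% lower. In 19 members all 3 ALN gel libraries lay above all 3 Gel libraries, and in 0 members below, where the shares over all genes were 11.1% and 5.03%. Of these 19, 13 belonged to the pump. DESeq2 called 7 members higher (Atp6v0e1, Atp6v1c1, Atp6v1d, Atp6v1e1, Atp6v1h, Ctsz and Gusb), against 0.801% of genes tested. limma-voom with quality weights called 8 (Atp6v0e1, Atp6v1a, Atp6v1c1, Atp6v1d, Atp6v1e1, Atp6v1h, Gusb and Glb1), against 1.6%. Neither called a member lower (backgrounds 0.239% and 0.097%). In the edgeR test of any difference among the 3 groups, 0 members passed and 16 had an unadjusted p under 0.05, where 9.29% of all genes did. DESeq2 called 6 members in that test (1.64% of all genes) and limma-voom 0 (0.181%). Of the 16, 8 were V1 subunits, 2 V0 subunits and 2 accessory proteins.

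Without Gel library 3, the count of members at an unadjusted p under 0.05 in this comparison was 9, and without ALN gel library 1 it was 11. Without Gel library 1, which stood apart in the osteoclast and macrophage lists, it was 24. Here and below, the share of all genes at that level was counted only in the main edgeR fit and not with a library left out.

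The comparison of both bisphosphonate gels bears on the magnesium framework. It shares the ALN gel libraries with the comparison above, so a high ALN gel value enters both. Here 19 members were higher and 27 lower in Mg-ALN gel (median log2 fold change −0.33, against −0.044 over all genes tested), where 46.4% of all genes were higher and 53.6% lower. All 8 V1 subunits were lower (median −1.05) and 7 of 9 proteases higher (median 0.68). The V1 direction was the same by limma-voom, whereas 5 of 9 proteases were higher by limma-voom (median 0.00763) and 5 of 9 without Mg-ALN gel library 1 (median 0.00917). By the same edgeR test, 0 members passed (lowest adjusted p 0.496), and 0 higher and 14 lower members had an unadjusted p under 0.05, where 3.76% and 5.43% of all genes did (9.19% in all). Groups did not overlap for 2 higher members (Ctsc and Ctsl) and 15 lower ones, against 6.76% and 9.77% of all genes. DESeq2 called 1 member, Glb1, lower (adjusted p 0.0375, where 0.794% of genes tested were called lower and 0.364% higher), and limma-voom called 0 (0.0129% of genes higher and 0% lower). Without ALN gel library 2 or Mg-ALN gel library 2, the count of 14 members at an unadjusted p under 0.05 was 9.

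Between Mg-ALN gel and Gel, 20 members were higher and 26 lower (median log2 fold change −0.074, against −0.032 over all genes tested), where 47.7% of all genes were higher and 52.2% lower, and the members ranged from −0.75 to 0.68. By edgeR 0 members passed (lowest adjusted p 0.53) and 0 had an unadjusted p under 0.05, against 9.31% of all genes (5.43% higher and 3.88% lower). DESeq2 and limma-voom also called 0 members at an adjusted p under 0.05, where DESeq2 called 0.156% of genes higher and 0.176% lower and limma-voom 0%. At an unadjusted p under 0.05 they had 1 and 8 members, and the share of all genes at that level was not counted for either tool. Groups did not overlap for Atp6v0e1 and Atp6v1g1, higher in Mg-ALN gel, and for Tpp1, lower, where 9.76% and 8.56% of all genes did not. Atp6v0e1 differed by 0.50 (SE 0.28) and Atp6v1g1 by 0.62 (SE 0.28) on the log2 scale. Without Gel library 1 there were 3 members at an unadjusted p under 0.05, without Mg-ALN gel library 1 there were 2, and without ALN gel library 1 there was 1. That no member passed does not show that the levels were alike.

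**Figure D2:**
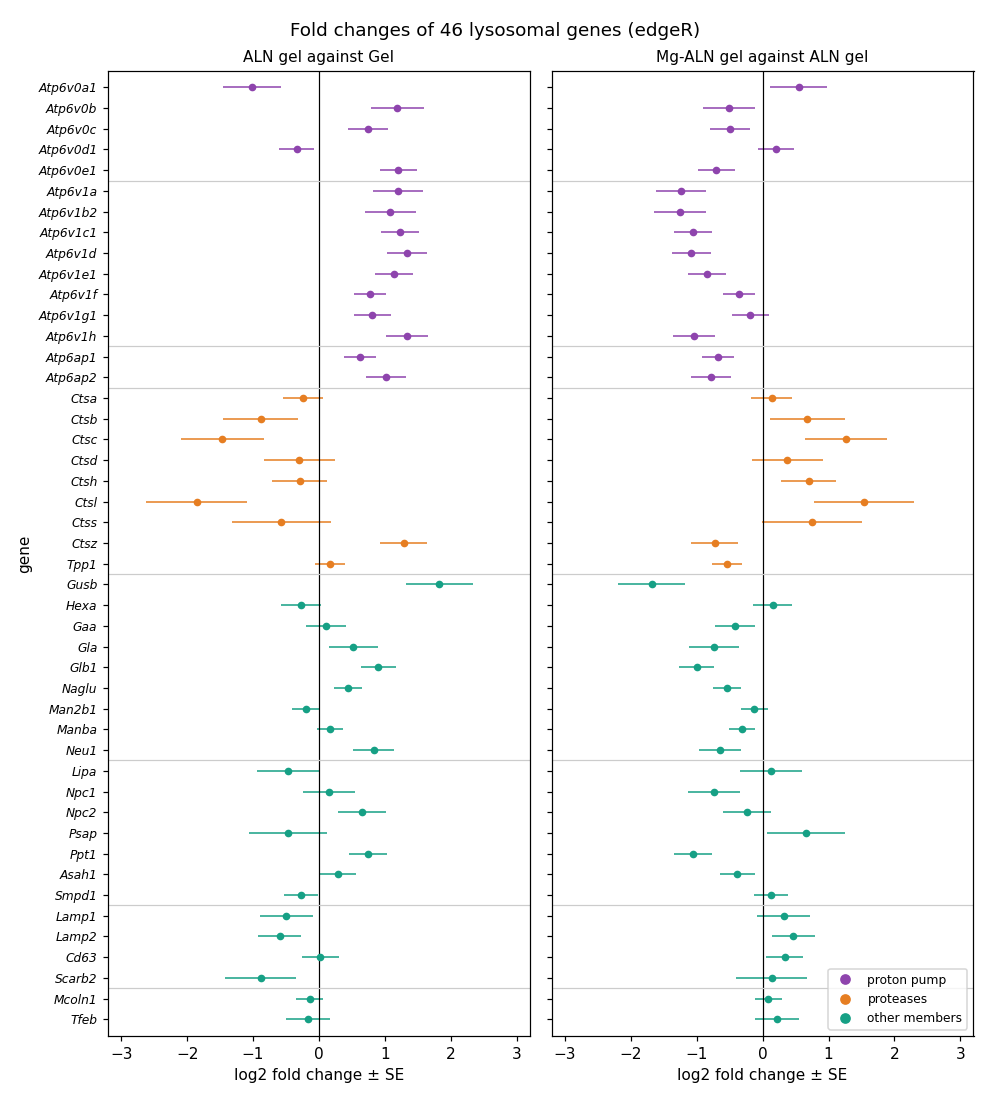
Log2 fold change with its SE (edgeR, 3 libraries per group) of each member in ALN gel against Gel and in Mg-ALN gel against ALN gel, coloured by pump, proteases and other members. V1 subunits lie right of 0 in the first panel and left of 0 in the second, and most proteases lie the other way in this edgeR fit.

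The V1 sector burns ATP, and 6 of its 8 measured subunits separated ALN gel from both other groups. Against Gel alone 8 of 8 did, where 11.1% of all genes were higher without overlap. Between the bisphosphonate gels 6 of 8 did, where 9.77% of all genes were lower without overlap. The share of all genes that separated ALN gel from both groups was not counted, and both comparisons share the ALN gel libraries. Atp6v1d (chr6:102032276-102047758 in the table, whose build is not given in the sources used here), part of the central rotor stalk, stood at 157, 124 and 81.6 CPM in the Gel libraries 1 to 3, 398, 300.1 and 218 CPM in the ALN gel libraries and 141, 144 and 148 CPM in the Mg-ALN gel libraries. Every ALN gel library lay above every other library. The log2 fold change was 1.34 (SE 0.30, adjusted p 0.505 by edgeR) for ALN gel against Gel and −1.08 (SE 0.30, adjusted p 0.496) for Mg-ALN gel against ALN gel.

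Atp6v1h, the regulatory subunit that couples V1 to V0, stood at 143, 86.1 and 59.5 CPM in the Gel libraries 1 to 3, 289, 241 and 199.7 CPM in the ALN gel libraries and 101, 127 and 125 CPM in the Mg-ALN gel libraries. The same 3 libraries were highest, with a log2 fold change of 1.34 against Gel (SE 0.32) and of −1.05 between the bisphosphonate gels (SE 0.32). Atp6v1c1, which helps fix the sectors to each other, stood at 149, 135 and 90.0 CPM in the Gel libraries 1 to 3, 357, 299.8 and 218 CPM in the ALN gel libraries and 109.6, 142 and 171 CPM in the Mg-ALN gel libraries, again with no overlap of ALN gel with either other group, and a log2 fold change of 1.23 against Gel (SE 0.29) and of −1.05 between the bisphosphonate gels (SE 0.29). In Mg-ALN gel, Atp6v1d and Atp6v1h lay within the range of Gel, and Atp6v1c1 lay within it in libraries 1 and 2 and above it in library 3.

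The remaining V1 subunits were added after their values were seen. Atp6v1a, the catalytic subunit, had group means of 319 ± 90.5, 732 ± 126 and 311 ± 134 CPM (SD, n = 3) in Gel, ALN gel and Mg-ALN gel. Its partner in the ATP-binding ring, Atp6v1b2, had 516 ± 193, 1091 ± 247 and 458 ± 161 CPM. Atp6v1e1, of the peripheral stalk, had 147 ± 45.3, 323 ± 75.0 and 180.0 ± 23.4 CPM. All 3 separated ALN gel from both other groups, library by library. The small subunits Atp6v1f and Atp6v1g1 separated ALN gel from Gel, with log2 fold changes of 0.78 and 0.81, but their Mg-ALN gel libraries overlapped ALN gel (−0.35 and −0.19). Atp6v1g1 stood at 295, 315 and 212 CPM in the Gel libraries 1 to 3, 597, 495 and 349.5 CPM in the ALN gel libraries and 496, 347 and 424 CPM in the Mg-ALN gel libraries.

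The V0 sector split in 2 directions in ALN gel against Gel. Atp6v0e1, a small membrane subunit, stood at 194, 168 and 111 CPM in the Gel libraries 1 to 3, 457, 368 and 265 CPM in the ALN gel libraries and 209, 210.1 and 251 CPM in the Mg-ALN gel libraries. It was higher in ALN gel than in Gel by 1.2 (SE 0.29) and its log2 fold change in Mg-ALN gel against ALN gel was −0.70 (SE 0.28), with no overlap in either, and it is the 1 pump gene with a GTCACGTG match that was higher in ALN gel. The rotor-ring proteolipids Atp6v0b and Atp6v0c were also higher in every ALN gel library than in any Gel library (1.19, SE 0.40, and 0.74, SE 0.30). Atp6v0b stood at 238, 249 and 139 CPM in the Gel libraries 1 to 3, 671, 442 and 311 CPM in the ALN gel libraries and 479.6, 214 and 308 CPM in the Mg-ALN gel libraries. Atp6v0c stood at 888, 915 and 564 CPM in the Gel libraries 1 to 3, 1246, 1701 and 1014 CPM in the ALN gel libraries and 919, 856 and 1033 CPM in the Mg-ALN gel libraries. Against ALN gel, Mg-ALN gel overlapped for both (−0.51 and −0.50).

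Atp6v0a1 and Atp6v0d1, which exist beside osteoclast forms of the same subunits, had lower means in ALN gel than in Gel and were added after their values were seen. Atp6v0a1 stood at 38.7, 118 and 114 CPM in the Gel libraries 1 to 3, 26.1, 63.1 and 44.7 CPM in the ALN gel libraries and 58.9, 65.9 and 70.7 CPM in the Mg-ALN gel libraries. Gel library 1 was low and fell within the ALN gel range, so the groups overlapped, and the log2 fold changes were −1.01 (SE 0.44) and 0.55 (SE 0.43). Atp6v0d1, the subunit between rotor ring and stalk, stood at 106, 142 and 122 CPM in the Gel libraries 1 to 3, 63.7, 132 and 97.1 CPM in the ALN gel libraries and 111, 112 and 115 CPM in the Mg-ALN gel libraries and overlapped in every comparison (−0.33 and 0.20). It lies over an antisense gene for 1859 bases in the table's annotation, and the counting strand is not stated.

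The osteoclast forms of these 2 subunits, Tcirg1 and Atp6v0d2, are outside the set and show the other side of the split. By deposited FPKM, Tcirg1 made up 93.4%, 77.8% and 68.0% of the Tcirg1 and Atp6v0a1 total in the Gel libraries 1 to 3, 97.0%, 93.7% and 94.1% in ALN gel, then 84.2%, 85.2% and 87.0% in Mg-ALN gel. The 3 ALN gel shares were above those of all Mg-ALN gel libraries and of all Gel libraries, with Gel library 1 close below them. Atp6v0d2 made up 77.5%, 44.9% and 26.1% of its pair in Gel, 93.1%, 82.9% and 84.1% in ALN gel, then 35.9%, 64.0% and 64.0% in Mg-ALN gel, again highest in ALN gel, while Gel and Mg-ALN gel overlapped and Gel library 1 stood above the other Gel libraries. Summed over both forms, the d subunit stood at a higher FPKM in each ALN gel library than in any other. Atp6v0d2 reached 338, 258 and 203 FPKM there while Atp6v0d1 was at 24.9, 53.3 and 38.5. Ctsk, the matrix-degrading cathepsin of osteoclasts, was at 4068 ± 3906, 12448 ± 2266 and 5564 ± 3085 CPM in Gel, ALN gel and Mg-ALN gel, and Acp5, their acid phosphatase, at 2566 ± 3323, 6901 ± 2531 and 1447 ± 534.

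**Figure D3:**
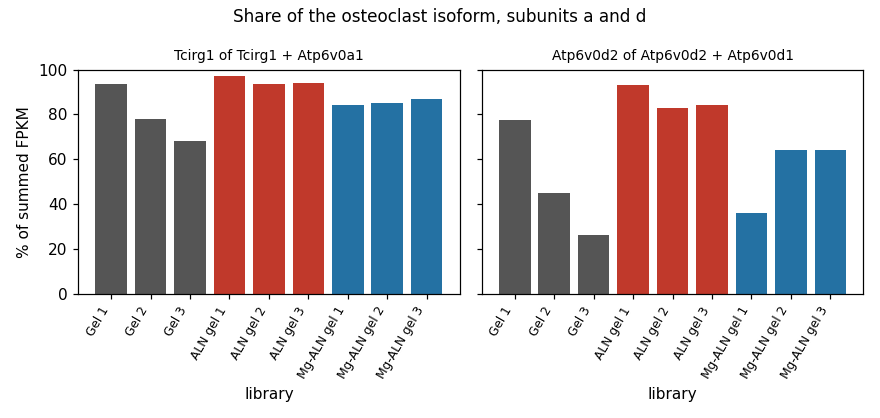
Share of the osteoclast form in the summed FPKM of a pair of forms of subunit a (Tcirg1 of Tcirg1 and Atp6v0a1) and of subunit d (Atp6v0d2 of Atp6v0d2 and Atp6v0d1), in percent, 1 bar per library, coloured by group. Other forms of subunit a are not in the sum: Atp6v0a2 had no matched row and Atp6v0a4 was too low to test. The ALN gel bars run from 93.7% to 97.0% for subunit a and from 82.9% to 93.1% for subunit d.

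The accessory proteins Atp6ap1 and Atp6ap2, which help assemble the pump, had the pattern of the V1 subunits. Atp6ap1 stood at 357, 269.6 and 212 CPM in the Gel libraries 1 to 3, 463, 449 and 377 CPM in the ALN gel libraries and 296, 233 and 279 CPM in the Mg-ALN gel libraries, and Atp6ap2 at 337, 329 and 204 CPM in the Gel libraries 1 to 3, 689, 650.4 and 417 CPM in the ALN gel libraries and 264, 374 and 384 CPM in the Mg-ALN gel libraries. For both, ALN gel overlapped with neither other group. Log2 fold changes were 0.62 (SE 0.25) and 1.01 (SE 0.30) against Gel, and −0.67 (SE 0.25) and −0.78 (SE 0.30) for Mg-ALN gel against ALN gel.

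The 15 pump genes were grouped only after their values were seen. In ALN gel against Gel 13 of 15 were higher, 13 without overlap, with a median log2 fold change of 1.08; among the 31 other members 14 were higher, 6 without overlap, with a median of −0.17. In Mg-ALN gel against ALN gel 13 of 15 pump genes were lower, 9 without overlap (median −0.70), and of the other 31, 14 were lower (median 0.13). That last median was −0.24 by limma-voom and −0.16 without Mg-ALN gel library 1, and the −0.17 of the other members against Gel was 0.074 without Gel library 2, so the opposite signs of pump and other members depend on these settings. Over all genes, 11.1% were higher without overlap in the first comparison and 9.77% lower without overlap in the second. Osteoclast markers, a list of 14 that holds the 4 genes the rule leaves out, were high in the same libraries. Of them, 13 could be tested (Dcstamp had 0 counts in 7 libraries and 2 at most), and all 13 were higher in ALN gel than in Gel (median 1.56) and lower with the framework than in ALN gel (median −1.56). They summed to 2430.1 to 18958 CPM in Gel, 22374 to 32905 in ALN gel and 4020.4 to 12975 in Mg-ALN gel. The mean centred log2 CPM of V1 for Gel libraries 1 to 3 was −0.082, −0.36 and −0.94, for those of ALN gel 0.92, 0.78 and 0.32, and for those of Mg-ALN gel −0.36, −0.24 and −0.044. In the same order, the osteoclast markers had 0.65, −1.03 and −1.52, then 1.31, 1.47 and 1.07, then −1.76, −0.30 and 0.10. Their part in the pump result was not tested. With the mitochondrial share of counts as a covariate the pump median in ALN gel against Gel was 0.82, and 8 in place of 14 pump genes had an unadjusted p under 0.05 (8.2% of all genes without the covariate). Without Gel library 3, which stood apart in the muscle list, that count was 6, with a median of 0.76. Without ALN gel library 1 it was 8. Without Gel library 1 it was 14, with a median of 1.29. In Mg-ALN gel against ALN gel it was 9 (9.19% of all genes), and 5 without ALN gel library 1, ALN gel library 2 or Mg-ALN gel library 2.

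Proteases had the widest range of log2 fold changes against Gel of any role, from −1.86 to 1.28. Ctsl (chr17:1872848-1879279 in the table), a cysteine endopeptidase, stood at 165, 1743 and 1815 CPM in the Gel libraries 1 to 3, 209.5, 532 and 286 CPM in the ALN gel libraries and 1169, 664 and 1149.6 CPM in the Mg-ALN gel libraries. Gel libraries 2 and 3 were high and Gel library 1 was the lowest of all 9, so Gel overlapped ALN gel, whereas all Mg-ALN gel libraries lay above all ALN gel libraries. The log2 fold change was −1.86 (SE 0.76, adjusted p 0.582 by edgeR) for ALN gel against Gel, −2.43 to −1.56 with 1 library left out at a time, and 1.54 (SE 0.75, adjusted p 0.572) for Mg-ALN gel against ALN gel.

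Ctsc, a dipeptidyl peptidase that activates serine proteases of white blood cells, stood at 113, 618 and 439 CPM in the Gel libraries 1 to 3, 65.5, 250.2 and 107 CPM in the ALN gel libraries and 347, 308 and 359 CPM in the Mg-ALN gel libraries. Mg-ALN gel again lay above every ALN gel library and Gel library 1 far below the other Gel libraries, with a log2 fold change of −1.47 against Gel (SE 0.63) and of 1.26 between the bisphosphonate gels (SE 0.62). Ctsb stood at 1114, 5188 and 4641 CPM in the Gel libraries 1 to 3, 1296, 2936 and 1709 CPM in the ALN gel libraries and 3735, 2553 and 3199.7 CPM in the Mg-ALN gel libraries, with Gel library 1 again lowest and overlap in both comparisons (−0.88, SE 0.57, and 0.68, SE 0.57). With 1 library left out at a time, the first value ran from −2.27 to −1.04 for Ctsc and from −1.38 to −0.61 for Ctsb, lowest without ALN gel library 2 and highest without Gel library 2; without Gel library 1 it was −1.91 and −1.31. Ctsd stood at 751, 2675 and 1464 CPM in the Gel libraries 1 to 3, 1178, 1854 and 942 CPM in the ALN gel libraries and 2720.1, 1052 and 1386 CPM in the Mg-ALN gel libraries, and all groups overlapped (−0.30, SE 0.54, and 0.38, SE 0.54).

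Ctsz ran against the other cathepsins. It stood at 771, 851 and 566 CPM in the Gel libraries 1 to 3, 2174, 2024 and 1130.0 CPM in the ALN gel libraries and 1306, 737 and 1184 CPM in the Mg-ALN gel libraries, with every ALN gel library but ALN gel library 3 above every other library. Against Gel it was higher by 1.28 (SE 0.36) without overlap, and Mg-ALN gel overlapped ALN gel (−0.72, SE 0.36). Tpp1, a tripeptidyl peptidase, was at 244, 314 and 232 CPM in Gel, 304, 327 and 258 in ALN gel, then 231, 159 and 222 in Mg-ALN gel. Mg-ALN gel was thus lowest without overlap with either group, though 231 CPM lies barely below the 232 of Gel library 3. Tpp1 was the 1 of 46 members lower than Gel without overlap, where 8.56% of all genes were. The remaining proteases, Ctsa, Ctsh and Ctss, overlapped between ALN gel and Gel, with log2 fold changes of −0.24, −0.30 and −0.57, and Ctsa shares 157 bases with Pltp on the opposite strand.

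Macrophage markers were low and high in much the same libraries as the proteases. The mean centred log2 CPM of the 9 proteases for Gel libraries 1 to 3 was −0.88, 0.73 and 0.34, for those of ALN gel −0.45, 0.26 and −0.62, and for those of Mg-ALN gel 0.68, −0.25 and 0.20. In the same order, the 11 of 12 macrophage markers that could be tested had −1.16, 0.67 and 0.80, then −0.26, 0.46 and −0.51, then 0.55, −0.73 and 0.19. The remaining one, Marco, had 0 counts in all libraries. Of the 11 tested, 4 were higher in ALN gel than in Gel (median −0.33) and 8 higher with the framework than with ALN alone (median 0.29). Their summed level was 1278 to 2515 CPM in Gel, 1708 to 2596 in ALN gel and 1214 to 2894 in Mg-ALN gel. Of 8 fibroblast markers, 7 were lower and 1 higher in ALN gel than in Gel (median −0.52). All 8 were higher with the framework than with ALN alone (median 0.99). By library their mean centred log2 CPM was −0.28, 0.17 and 0.15 in Gel, then −1.99, −0.69 and 0.65 in ALN gel, then 1.30, 0.40 and 0.29 in Mg-ALN gel. Csf1r, the receptor that macrophages and osteoclast precursors share, did not have the pattern of the proteases, at 442 ± 58.8, 708 ± 86.9 and 398 ± 44.7 CPM in the 3 groups. The part of macrophages or fibroblasts in the protease values was not tested.

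**Figure D4:**
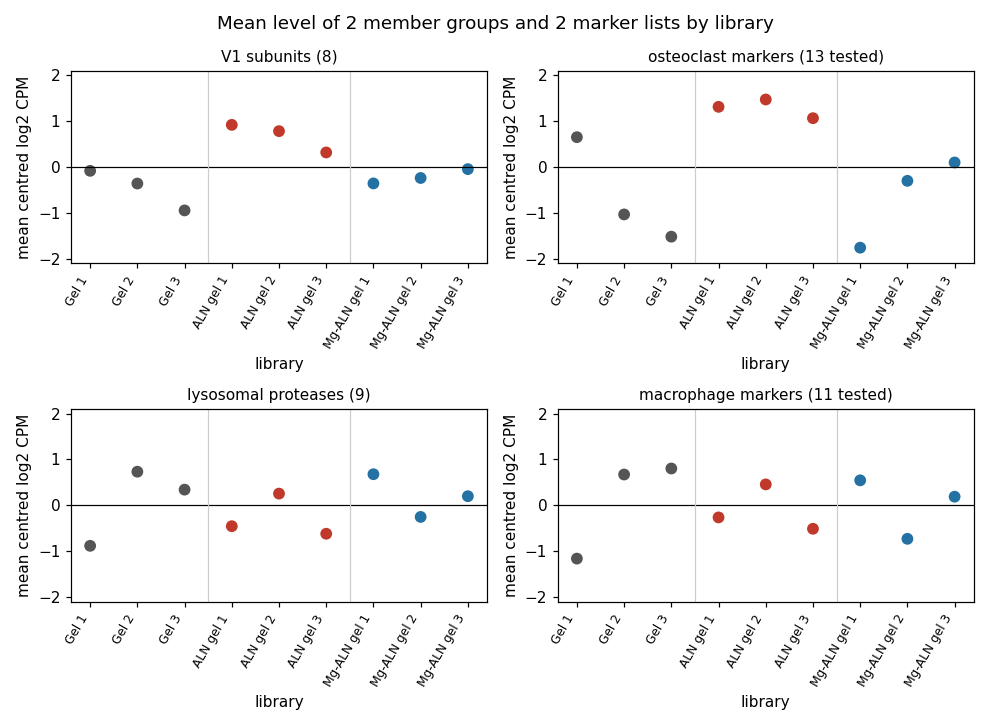
Mean over genes of log2 CPM centred on each gene, by library, for the 8 V1 subunits, the 9 proteases, 13 osteoclast markers and 11 macrophage markers, with 1 point per library coloured by group. The V1 points of the ALN gel libraries run from 0.32 to 0.92 and lie above those of all other libraries, and Gel library 1 is lowest for the proteases (−0.88) and the macrophage markers (−1.16).

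Glycosidases clip sugars from glycoproteins, glycolipids and matrix chains. Of 9, 7 were higher in ALN gel than in Gel (median 0.44, 4 without overlap) and 8 lower with the framework than in ALN gel (median −0.54, 4 without overlap), where 11.1% of all genes were higher and 9.77% lower without overlap in those comparisons. Gusb (chr12:30198822-30227771 in the table), which removes glucuronic acid, stood at 332, 127 and 100.1 CPM in the Gel libraries 1 to 3, 811, 649 and 519 CPM in the ALN gel libraries and 112, 221 and 283 CPM in the Mg-ALN gel libraries. ALN gel lay above all other libraries, by log2 fold changes of 1.82 (SE 0.51, adjusted p 0.528 by edgeR) and −1.68 (SE 0.51, adjusted p 0.496), the highest and the lowest values among the members in those comparisons. Within Gel, library 1 was the highest. Gusb lies over Vkorc1l1 on the opposite strand for 5071 bases in the table, where Vkorc1l1 had a mean of 12.3 counts and Gusb 5273.

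Glb1, a beta-galactosidase, stood at 249, 136 and 151 CPM in the Gel libraries 1 to 3, 382, 286 and 331 CPM in the ALN gel libraries and 153, 183 and 162 CPM in the Mg-ALN gel libraries, with ALN gel above all other libraries and a log2 fold change of 0.90 against Gel (SE 0.27) and of −1.0 between the bisphosphonate gels (SE 0.27). Neu1, a sialidase, stood at 94.5, 93.1 and 48.3 CPM in the Gel libraries 1 to 3, 141, 162 and 117 CPM in the ALN gel libraries and 116, 65.2 and 86.7 CPM in the Mg-ALN gel libraries. It did not overlap between ALN gel and Gel (0.83, SE 0.31), and ALN gel library 3, at 117 CPM, was just above the highest Mg-ALN gel library (−0.65, SE 0.31). The other 6 glycosidases were Hexa, Gaa, Gla, Naglu, Man2b1 and Manba, with log2 fold changes from −0.27 (Hexa) to 0.52 (Gla) against Gel. Among them Naglu alone separated ALN gel from both other groups, at 92.2, 103 and 67.1 CPM in Gel, 121, 129 and 104 in ALN gel, then 75.1, 78.7 and 89.5 in Mg-ALN gel.

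In lipid handling, Ppt1, which removes palmitate from proteins, stood at 219.6, 226 and 148 CPM in the Gel libraries 1 to 3, 456, 274 and 264 CPM in the ALN gel libraries and 162, 130.3 and 184 CPM in the Mg-ALN gel libraries. It was the only member of this role whose ALN gel libraries overlapped with neither other group (0.74, SE 0.29, and −1.06, SE 0.29). Npc1 stood at 42.2, 61.2 and 55.1 CPM in the Gel libraries 1 to 3, 36.5, 78.1 and 61.7 CPM in the ALN gel libraries and 17.3, 42.6 and 46.1 CPM in the Mg-ALN gel libraries, and Npc2, the soluble protein that hands cholesterol to it, at 333, 559 and 396 CPM in the Gel libraries 1 to 3, 844, 774 and 412 CPM in the ALN gel libraries and 789.7, 449 and 483 CPM in the Mg-ALN gel libraries. Both overlapped between all groups, with log2 fold changes of 0.15 and 0.66 against Gel and of −0.73 and −0.24 for Mg-ALN gel against ALN gel, and Npc1 shares 406 bases with Rmc1 on the other strand. Lipa, Psap, Asah1 and Smpd1 ranged from −0.47 (Psap) to 0.29 (Asah1) against Gel. Psap, at 1421, 5552 and 3996 CPM in Gel, was lowest of all libraries in Gel library 1, as Ctsl and Ctsb were.

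The membrane glycoproteins, which line the lysosome, did not share the pump's pattern. Lamp1, whose promoter held 5 E-boxes, stood at 386, 902 and 861 CPM in the Gel libraries 1 to 3, 332, 696 and 495 CPM in the ALN gel libraries and 827, 521 and 559 CPM in the Mg-ALN gel libraries, and the groups overlapped (−0.50, SE 0.40, and 0.32, SE 0.40). Lamp2 stood at 151, 296 and 258 CPM in the Gel libraries 1 to 3, 148, 172 and 145 CPM in the ALN gel libraries and 306, 174 and 164 CPM in the Mg-ALN gel libraries (−0.60, SE 0.32, and 0.47, SE 0.32). Scarb2, the carrier that brings glucocerebrosidase to lysosomes, stood at 31.1, 107 and 110.2 CPM in the Gel libraries 1 to 3, 18.9, 62.4 and 52.7 CPM in the ALN gel libraries and 36.1, 53.7 and 57.4 CPM in the Mg-ALN gel libraries (−0.89, SE 0.54, and 0.14, SE 0.53). Cd63 varied least of the 4, at 900.1, 1213 and 739 CPM in the Gel libraries 1 to 3, 935, 1122 and 831 CPM in the ALN gel libraries and 1344, 1028 and 1274 CPM in the Mg-ALN gel libraries (0.018, SE 0.28, and 0.34, SE 0.28). In none of the 4 did ALN gel separate from another group.

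Tfeb, the transcription factor of the set, stood at 28.8, 49.3 and 35.4 CPM in the Gel libraries 1 to 3, 29.0, 40.7 and 31.5 CPM in the ALN gel libraries and 57.4, 23.8 and 36.8 CPM in the Mg-ALN gel libraries. Its ALN gel values lay inside the range of both other groups (−0.17, SE 0.34, and 0.22, SE 0.34). Mcoln1, with 2 E-boxes near its start, stood at 35.8, 37.2 and 33 CPM in the Gel libraries 1 to 3, 26.5, 40.4 and 29.3 CPM in the ALN gel libraries and 38.5, 31.0 and 32.6 CPM in the Mg-ALN gel libraries (−0.14, SE 0.21, and 0.087, SE 0.21). Of the 7 members with GTCACGTG, Atp6v0e1 and Glb1 were higher in every ALN gel library than in any Gel library, and Atp6v0d1, Ctsd, Gaa, Lamp1 and Mcoln1 overlapped. In that comparison 19 of 46 members and 11.1% of all genes were higher without overlap. Whether the motif goes with these differences was not tested.

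**Figure D5:**
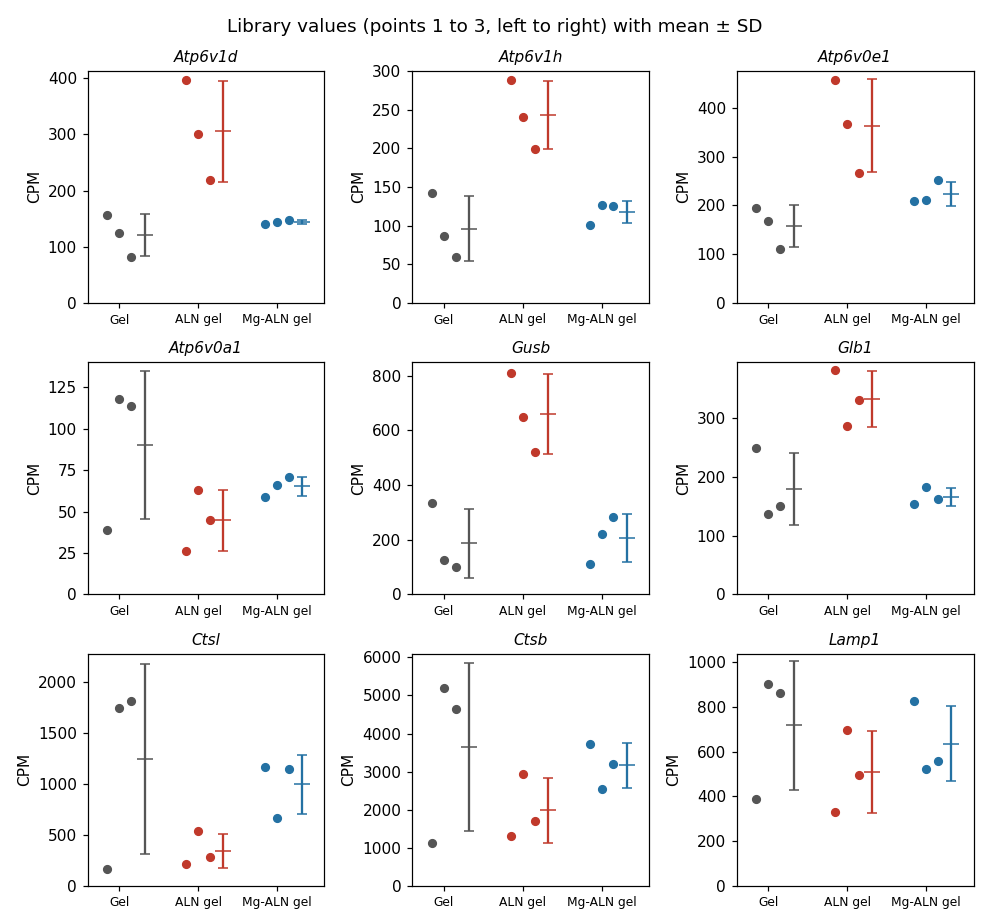
CPM of 9 members in each library (points) with the group mean and SD (bars, n = 3) for Gel, ALN gel and Mg-ALN gel, each axis starting at 0. ALN gel stands apart for Atp6v1d, Atp6v1h, Atp6v0e1, Gusb and Glb1, and Gel library 1, the leftmost point, is the lowest Gel library for Atp6v0a1, Ctsl, Ctsb and Lamp1.

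Other genes of the pathway were counted from lists of further lysosomal enzymes, membrane proteins, pump isoforms, and delivery and regulatory genes. By edgeR none of them passed in any comparison. At an unadjusted p under 0.05, 8.2% of all genes differed between ALN gel and Gel and 9.19% between Mg-ALN gel and ALN gel, and the counts below read against these shares. Of 19 further enzymes, 12 were higher in ALN gel than in Gel (median 0.073, 1 at an unadjusted p under 0.05) and 16 lower with the framework than in ALN gel (median −0.16, 3 at that level). Idua, which digests heparan and dermatan sulfate, was at 77.5 ± 18.4, 111 ± 4.45 and 50.7 ± 13.2 CPM (SD, n = 3) in Gel, ALN gel and Mg-ALN gel. Gm2a, a lipid-lifting cofactor, was at 488 ± 214, 1089 ± 565 and 391.5 ± 93.7 CPM. Both had their highest mean in ALN gel and their lowest in Mg-ALN gel. Of 16 further membrane proteins, 11 were higher in ALN gel than in Gel (median 0.11, 1 at that level) and 11 lower with the framework than in ALN gel (median −0.23, 4 at that level). Clcn7, the chloride exchanger that balances the pump's charge, was at 73.2 ± 27.7, 132 ± 22.4 and 47.9 ± 25.2 CPM, and Cln3 at 15.1 ± 2.53, 24.7 ± 2.33 and 19.6 ± 2.97.

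Among 18 genes of delivery and regulation, 13 were higher in ALN gel than in Gel (median 0.19, 1 at an unadjusted p under 0.05) and 11 lower with the framework than in ALN gel (median −0.083, 3 at that level). Over these 3 lists and the pump isoforms, 55 genes in all, DESeq2 called 0 and limma-voom 1 in ALN gel against Gel, and DESeq2 called 2 and limma-voom 0 in Mg-ALN gel against ALN gel. The gene called by limma-voom was Mitf, and the 2 called by DESeq2 were Idua and Mitf, both lower in Mg-ALN gel. Over all genes limma-voom called 1.6% higher in the first comparison, so its count of 1 of 55 is near the share of all genes. DESeq2 called 0.794% of all genes lower in the second, and its count of 2 of 55 is above that share but rests on 2 genes. Mitf, the relative of Tfeb that osteoclasts depend on, stood at 37.9, 36.4 and 27.5 CPM in the Gel libraries 1 to 3, 72.5, 78.6 and 58.0 CPM in the ALN gel libraries and 20.0, 33.1 and 41.5 CPM in the Mg-ALN gel libraries. Unlike those of Tfeb, its 3 ALN gel values lay above all others, with a log2 fold change of 1.04 against Gel (SE 0.28, adjusted p 0.528 by edgeR) and of −1.14 between the bisphosphonate gels (SE 0.28, adjusted p 0.496). Whether Mitf and Tfeb differ in their response was not tested. Gnptab, the enzyme that starts the mannose 6-phosphate tag on lysosomal proteins, stood at 203, 154 and 132 CPM in the Gel libraries 1 to 3, 210.2, 398 and 379 CPM in the ALN gel libraries and 37.9, 147 and 171 CPM in the Mg-ALN gel libraries, with Mg-ALN gel library 1 far below the rest. Of the pump isoforms outside the set, 2 of 7 were high enough to test, Atp6v0e2 and Atp6v1c2, at means of 11.7 and 1.84 CPM in Gel and 11.8 and 2.22 in ALN gel.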

How the data were processed

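RNA from 9 libraries, 3 per group, was measured as raw read counts, deposited by the authors per gene. The authors also deposited FPKM values, which checked against the counts as count divided by gene length and by 1 constant per library (0.804 to 1.19 times the column total); they were used only to compare levels between genes. Among tools, HISAT2 2.0.5, featureCounts 1.5.0-p3, StringTie 1.3.3b, edgeR 3.22.5, DESeq2 1.20.0 and fastp are listed in the submitters' processing notes, with no role. The genome build and the counting strand are not given in the sources used here. Genes that overlap another are therefore uncertain. Groups came from the sample titles.

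In R 4.3.3, edgeR 4.0.16 fitted all 9 libraries in 1 quasi-likelihood model with a coefficient per group, after filterByExpr (15460 genes, all 46 members among them) and TMM scaling. Tests were two-sided, Benjamini-Hochberg adjusted over all genes tested, with a threshold of 0.05. SEs are the log2 fold change over the square root of F. The fit was tested on simulated counts. Total counts of 13388689 to 18763270 per library set the counting precision, and the spread between libraries exceeded it. Libraries of the same number in Gel and ALN gel deviated together from their group means across genes (r = 0.341, 0.419 and 0.226), a hint of pairing from the data and not from the labels. The fit with the replicate number as a block was an alternative, as were RLE size factors, no filter, DESeq2 1.42.0, limma 3.58.1 voom with quality weights, mitochondrial genes left out, the mitochondrial share as a covariate, and each library left out.

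The members, lists and rules were chosen with earlier results of these data known. Values by library are given for the 3 members of each role with the smallest unadjusted p in the test of any difference among the groups, and for Lamp1, Ctsd, Ctsb and Tfeb; from each pathway list the 2 genes of smallest p are named. Others were named after their values were seen: Atp6v0a1, Atp6v0d1, the other V1 subunits, Tpp1, Naglu, Psap and the marker Csf1r. Of 144 list entries beside the members, 136 matched the table by symbol or through the RefSeq gene table. The pump genes were grouped after seeing the data. Motifs were matched letter by letter in RefSeq windows of build GRCr8, with no test.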

Additional observations from a re-analysis of the deposited data

How the results depend on the processing

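Under 5 other edgeR settings and 9 edgeR fits that each left out 1 library, 0 members passed the adjusted threshold in any comparison. The median log2 fold change of the members moved by less than the SD of library medians within groups (0.218) in these and under DESeq2 and limma-voom. DESeq2 called 7 members in ALN gel against Gel, 1 in the comparison of both bisphosphonate gels and 6 over the 3 groups, and limma-voom called 8, 0 and 0. The share of all genes at an unadjusted p under 0.05 was counted only in the main edgeR fit, so the member counts at that level under other settings have no such share beside them. At that level, Mg-ALN gel against Gel had 0 members by edgeR, 1 by DESeq2, 8 by limma-voom and 2 with the replicate block. That block changed no other member count by over 1.5 times; numbers did not pair Mg-ALN gel with Gel (r = −0.0767, −0.0452 and −0.199) or ALN gel (0.130, −0.120 and −0.127). When the mitochondrial share was a covariate, 11 members and 8 pump genes had an unadjusted p under 0.05 in ALN gel against Gel, and the pump median was 0.82. Leaving out 1 library gave 9 to 24 members at that level in ALN gel against Gel, 9 to 15 in Mg-ALN gel against ALN gel (9 without ALN gel library 2 or Mg-ALN gel library 2) and 0 to 3 in Mg-ALN gel against Gel (3 without Gel library 1). For pump genes it gave 6 to 14 and 5 to 9 in the first 2 comparisons, with medians of 0.76 to 1.29 and −0.86 to −0.62. Over the 3 comparisons, of 138 member log2 fold changes 20 turned sign by limma-voom, 11 with the mitochondrial covariate, 16 without Mg-ALN gel library 1, 12 without Gel library 2 and 10 without Gel library 1; the other settings turned at most 8. Of members outside the pump, leaving out 1 library gave medians of −0.39 to 0.074 in ALN gel against Gel and −0.16 to 0.27 between the bisphosphonate gels, where limma-voom gave −0.24. For proteases these ranges were −0.71 to −0.13 and 0.00917 to 0.85, and limma-voom gave 0.00763 in the latter. Among the members given by library, Cd63 in ALN gel against Gel was −0.024 with RLE factors, −0.050 with no filter, −0.024 by DESeq2, −0.046 without mitochondrial genes and −0.0036 when their share was a covariate. By limma-voom Mcoln1 was 0.00847 there, and in Mg-ALN gel against ALN gel Ctsd was −0.20, Lamp1 −0.045, Mcoln1 −0.14 and Tfeb −0.24. Leaving out 1 library gave ranges across 0 in ALN gel against Gel for Cd63 (−0.19 to 0.18), Ctsd (−0.71 to 0.20), Tfeb (−0.41 to 0.016) and Npc1 (−0.19 to 0.41), and in Mg-ALN gel against ALN gel for Ctsd (−0.12 to 0.75), Tfeb (−0.16 to 0.53), Scarb2 (−0.23 to 0.50), Atp6v0d1 (−0.032 to 0.53) and Mcoln1 (−0.038 to 0.34). The cause was not tested.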
